A study of Homo sapiens with 9 samples.

Results

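The genes described here are 8 core components of the apoptotic caspase cascade: the caspases CASP2, CASP6, CASP8 and CASP9, the adaptor APAF1, the inhibitors of apoptosis XIAP and BIRC2, and their antagonist DIABLO. They were chosen by gene symbol from the 57766 genes of the expression table, and all 8 were found and passed the filter on low values with 15774 genes in all. Polyadenylated RNA had been sequenced from HEK293 Freestyle cells, a suspension derivative of a human embryonic kidney line, after 36 h in 1 of 3 media. The groups were Freestyle medium depleted of Zn(II) (depleted), depleted medium to which Zn(II) had been returned (repleted) and untreated Freestyle medium (full), with 3 libraries each. The starting culture was kept at 1000000 cells/mL for 18 h or longer, and its cells were washed in PBS and plated from 4000000 cells/mL. The labels also mention an EDTA wash before plating, without making clear what was washed, and give neither how Zn(II) was removed nor how much was returned. The labels call the libraries biological triplicates but describe a shared starting culture, so p-values measure the spread between these plated samples. HEK293 cells carry the E1 region of an adenovirus, whose E1B products block apoptosis, which limits the line as a model of cell death.

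Caspases are cysteine proteases made as inactive precursors. CASP9 is the initiator of the mitochondrial route and is activated on the apoptosome, a wheel of APAF1 molecules that assembles on cytochrome c released from mitochondria. CASP8 is the initiator recruited by death receptors, CASP2 is activated on a platform of PIDD and CRADD, and CASP6 is an executioner that cleaves nuclear lamins. XIAP binds and blocks caspases directly, whereas BIRC2 acts mainly as a ubiquitin ligase in signalling from tumour necrosis factor receptors. Both fold their BIR domains and their RING around zinc ions. DIABLO leaves mitochondria during apoptosis and displaces caspases from XIAP. Zinc ions inhibit several purified caspases.

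Expression was given as RPKM, a read count scaled for gene length and library size, which allows levels to be compared between genes. The depth, estimated from the steps between the smallest values, lay between 17000000 and 23500000 reads per library, so that each of the 8 genes rested on roughly 290 to 3600 reads in a library. These are estimates and not stated totals. Of the HEK293 genes checked, all 7 were above 0 in every library and their summed level was 825.35 to 845.55 RPKM in depleted, 817.74 to 841.07 RPKM in repleted and 835.4 to 849 RPKM in full libraries. That sum was mostly VIM (652.97 to 675.14 RPKM in depleted and 572.78 to 583.78 RPKM in full libraries). INA was not lower in depleted libraries (12.65 to 13.64 RPKM, against 12.36 to 13.22 RPKM in full libraries). NEFM (2.54 to 3.31 RPKM in depleted and 3.53 to 4.3 RPKM in full libraries), NEFL, PAX2, KRT8 and KRT18 were lower. NEFL had 6.14 to 6.89 RPKM in depleted and 29.91 to 33.18 RPKM in full libraries, PAX2 0.4 to 0.81 RPKM and 2.98 to 3.61 RPKM, KRT8 90.23 to 90.68 RPKM and 132.08 to 138.31 RPKM, and KRT18 57.91 to 60.79 RPKM and 76.5 to 79.14 RPKM. Of 13 markers of other cell types, 12 were found by symbol, 6 stayed under 1 RPKM in all 9 libraries and HBB was listed at 0 throughout. The sum of these 12 markers was 20.64 to 23.35 RPKM in depleted, 33.49 to 37.61 RPKM in repleted and 40.07 to 44.17 RPKM in full libraries, led by the collagen gene COL1A1 (7.18 to 10.6 RPKM in depleted and 16.39 to 19.65 RPKM in full libraries). The part of these markers in the results below was not tested. In such bulk RNA, fewer cells of a type and less RNA per cell cannot be told apart.

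Promoters of XIAP, CASP9, APAF1 and CASP2, which rose in depleted medium, and of CASP8, which fell, are shown with 1 window per gene because zinc acts on transcription through a known DNA element. XIAP, CASP9, CASP2 and CASP8 have further windows that are not printed, and the window shown was picked without a stated rule. Their sequences come from RefSeq on build GRCh38.p14 and run 5′ to 3′ from 250 bases before to 30 bases after a transcript start. Capitals mark the core of the metal response element, TGCACNC or TGCGCNC on either strand, which is the site of the zinc-sensing factor MTF1. XIAP is at chrX:123859458-123859737 (plus strand), CASP9 at chr1:15524761-15525040 (minus strand), APAF1 at chr12:98645040-98645319 (plus strand), CASP2 at chr7:143288101-143288380 (plus strand) and CASP8 at chr2:201233213-201233492 (plus strand).
XIAP: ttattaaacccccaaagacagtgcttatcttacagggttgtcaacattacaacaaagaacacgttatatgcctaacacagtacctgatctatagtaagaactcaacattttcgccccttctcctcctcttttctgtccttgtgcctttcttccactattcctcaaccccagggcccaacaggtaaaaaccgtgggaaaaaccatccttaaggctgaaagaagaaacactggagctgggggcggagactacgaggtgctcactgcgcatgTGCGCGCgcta
CASP9: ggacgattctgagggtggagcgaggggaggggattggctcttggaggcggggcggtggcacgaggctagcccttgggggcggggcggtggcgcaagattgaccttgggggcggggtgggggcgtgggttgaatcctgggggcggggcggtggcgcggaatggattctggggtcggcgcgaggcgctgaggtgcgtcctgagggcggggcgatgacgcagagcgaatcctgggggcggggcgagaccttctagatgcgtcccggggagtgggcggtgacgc
APAF1: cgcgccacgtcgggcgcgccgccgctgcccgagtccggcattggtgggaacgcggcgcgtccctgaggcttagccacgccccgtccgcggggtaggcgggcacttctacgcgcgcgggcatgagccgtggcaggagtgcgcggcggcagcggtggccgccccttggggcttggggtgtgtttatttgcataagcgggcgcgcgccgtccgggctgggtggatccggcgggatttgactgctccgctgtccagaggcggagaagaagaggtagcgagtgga
CASP2: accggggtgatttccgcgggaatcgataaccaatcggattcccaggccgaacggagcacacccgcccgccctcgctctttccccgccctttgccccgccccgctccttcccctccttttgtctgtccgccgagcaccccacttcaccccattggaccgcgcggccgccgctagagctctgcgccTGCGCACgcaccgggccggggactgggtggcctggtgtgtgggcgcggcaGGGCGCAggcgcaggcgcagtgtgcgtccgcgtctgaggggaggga
CASP8: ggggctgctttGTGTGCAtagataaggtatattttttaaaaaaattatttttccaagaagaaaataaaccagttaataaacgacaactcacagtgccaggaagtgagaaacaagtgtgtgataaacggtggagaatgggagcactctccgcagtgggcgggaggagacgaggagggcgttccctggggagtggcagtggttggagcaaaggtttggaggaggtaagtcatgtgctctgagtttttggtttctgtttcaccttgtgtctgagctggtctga
All 8 genes were in the promoter table, with 18 windows of 300 bases between them, some of which overlap. The element core was found in 8 of the 18 windows, which belong to XIAP, CASP2, CASP6, CASP8, BIRC2 and DIABLO, and in 29.6% of the 35116 windows of all genes. XIAP, CASP8, BIRC2 and DIABLO also had windows without it. Overlapping windows of XIAP share the same match, which is counted in each. The core was present in a gene that fell (CASP8), in a gene that did not pass the test (CASP6) and in genes that rose, while the CASP9 and APAF1 windows held none. The part of the element in these changes was not tested. The ATF4 element TGATGNAA (3.62% of all windows) and the E2F sites TTTCCCGC, TTTCGCGC, TTTGCCGC and TTTGGCGC (3.31%) were in none of the 18, a statement about these letters in these windows only.

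In zinc-depleted medium 6 of the 8 transcripts rose and 1 fell. In depleted against full medium, XIAP, CASP9, APAF1, DIABLO, CASP2 and BIRC2 rose, CASP8 fell and CASP6 did not pass the test (limma on log2(RPKM + 1), Benjamini-Hochberg adjustment over all 15774 genes, threshold 0.05). The shifts were moderate, between 1.24-fold and 1.85-fold in mean RPKM for the rises and 1.56-fold for the fall. The depleted and full libraries overlapped for CASP6 alone. Such calls were common, since limma called 60.9% of the 15774 genes in this comparison (29.8% as higher, 31.2% as lower), and 67.6% had groups that did not overlap. The median log2 change was 0.45 over the 8 genes, which were chosen with earlier results of these data known, and 0.0008 over all genes tested.

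**Figure D1:**
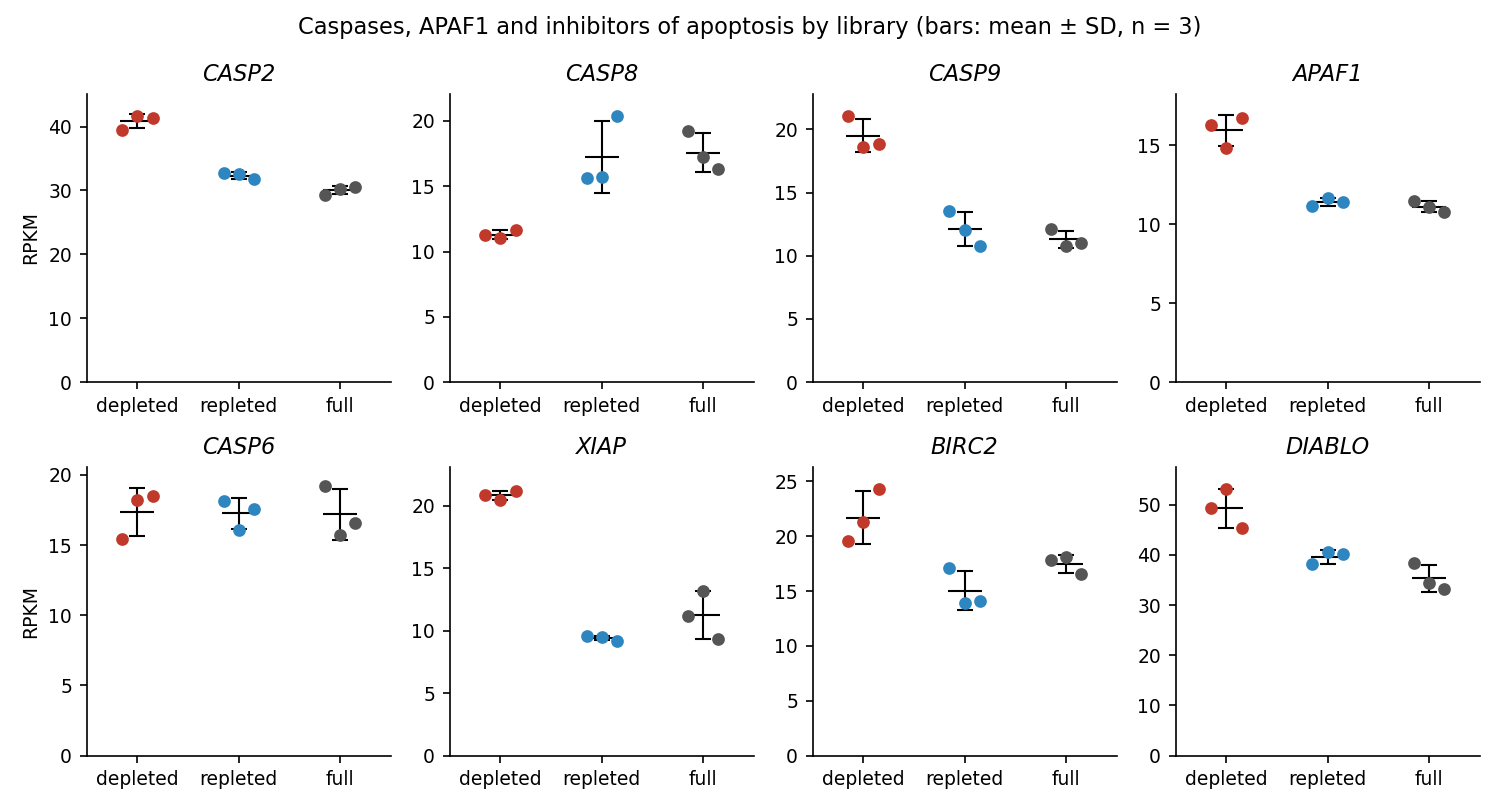
RPKM of each gene (vertical axis, from 0) in the 3 depleted, 3 repleted and 3 full libraries; points are libraries and bars the mean ± SD. The depleted points lie above both other groups for CASP2, CASP9, APAF1, XIAP, BIRC2 and DIABLO, below them for CASP8 (11 to 11.63 RPKM) and among them for CASP6.

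The apoptosome pair CASP9 and APAF1 rose together. CASP9 (ENSG00000132906, chromosome 1) had 21.03, 18.63 and 18.87 RPKM in depleted libraries, 13.53, 12.03 and 10.78 RPKM in repleted libraries and 12.09, 10.78 and 11.05 RPKM in full libraries. Every depleted library was above every other library. Its mean was 19.51 ± 1.32 RPKM in depleted and 11.31 ± 0.692 RPKM in full medium (SD, n = 3 each), 1.73-fold higher (log2 0.74, SE 0.09, limma adjusted p = 5.95e-05), and 7.69% of all genes tested had a larger log2 rise. CELA2B, a pancreatic elastase gene on the opposite strand that overlaps CASP9, averaged 1.52 RPKM in depleted, 0.043 RPKM in repleted and 0.057 RPKM in full libraries. Whether reads were assigned by strand is not given in the sources used here, so reads of such overlapping pairs may be mixed. APAF1 (ENSG00000120868, chromosome 12) had 16.32, 14.84 and 16.72 RPKM in depleted, 11.15, 11.66 and 11.45 RPKM in repleted and 11.5, 11.09 and 10.79 RPKM in full libraries. The lowest depleted library stood above the highest of the other 6. Its rise over full medium was 1.43-fold (log2 0.48, SE 0.06, limma adjusted p = 8.99e-05). CYCS, which encodes the cytochrome c that triggers assembly of APAF1, fell to 157.4 ± 1.82 RPKM in depleted medium, against 233.9 ± 7.53 RPKM in full medium (log2 -0.57, limma adjusted p = 9.11e-07).

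The other initiators, CASP2 and CASP8, moved in opposite directions. CASP2 (ENSG00000106144, chromosome 7) had 39.53, 41.59 and 41.4 RPKM in depleted, 32.66, 32.59 and 31.72 RPKM in repleted and 29.35, 30.29 and 30.61 RPKM in full libraries. Its libraries varied little within a group, and the 3 groups did not overlap. It was 1.36-fold higher in depleted than in full medium (log2 0.43, SE 0.04, limma adjusted p = 1.22e-05). CASP8 (ENSG00000064012, chromosome 2) had 11.26, 11 and 11.63 RPKM in depleted, 15.63, 15.7 and 20.38 RPKM in repleted and 19.2, 17.22 and 16.33 RPKM in full libraries. All depleted libraries were lower than any other library, and repleted replicate 3 was the highest of all 9. Its level in depleted medium was 11.3 ± 0.317 RPKM, against 17.58 ± 1.47 RPKM in full medium (SD, n = 3 each, log2 -0.59, SE 0.1, limma adjusted p = 0.000671).

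The executioner CASP6 (ENSG00000138794, chromosome 4) had 15.41, 18.2 and 18.52 RPKM in depleted, 18.15, 16.04 and 17.56 RPKM in repleted and 19.2, 15.74 and 16.58 RPKM in full libraries. The 3 groups overlapped throughout. Its log2 change in depleted against full medium was 0.02 with a 95% interval from -0.19 to 0.22 (limma adjusted p = 0.888), which leaves room for a change of that size in either direction. The calcium channel subunit gene CCDC109B, on the opposite strand and overlapping CASP6, averaged 25.56 RPKM in depleted and 34.16 RPKM in full libraries.

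Among the inhibitors, XIAP had the largest and BIRC2 the smallest of the 6 rises in depleted against full medium, whereas against repleted medium BIRC2 (log2 0.5) came after XIAP and CASP9. XIAP (ENSG00000101966, chromosome X) had 20.85, 20.48 and 21.18 RPKM in depleted, 9.57, 9.48 and 9.2 RPKM in repleted and 11.18, 13.19 and 9.36 RPKM in full libraries. The depleted libraries were close together and far above the rest, whereas the full libraries were spread, with full replicate 2 the highest. XIAP averaged 20.84 ± 0.35 RPKM in depleted and 11.24 ± 1.92 RPKM in full medium (SD, n = 3 each), 1.85-fold higher (log2 0.85, SE 0.1, limma adjusted p = 5.67e-05), and 5.34% of all genes tested had a larger log2 rise. BIRC8, a close copy of XIAP that could share its reads, was listed at 0 in all 9 libraries. BIRC2 (ENSG00000110330, chromosome 11) had 19.57, 21.27 and 24.28 RPKM in depleted, 17.09, 13.96 and 14.12 RPKM in repleted and 17.83, 18.09 and 16.55 RPKM in full libraries. Its lowest depleted library was 19.57 RPKM and its highest full library 18.09 RPKM. The rise over full medium was 1.24-fold (log2 0.29, SE 0.09, limma adjusted p = 0.023). That call was lost without depleted replicate 3 (adjusted p = 0.0843), without full replicate 3 (0.0747) and with no filter on low values (0.0556), the highest values of 18 alternatives that ranged from 0.0112 to 0.0843.

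The inhibitors' antagonist also rose. DIABLO (ENSG00000184047, chromosome 12) had 49.32, 53.25 and 45.37 RPKM in depleted, 38.11, 40.51 and 40.19 RPKM in repleted and 38.44, 34.35 and 33.31 RPKM in full libraries. Every depleted library was above every other one. It was 1.39-fold higher in depleted than in full medium (log2 0.47, SE 0.07, limma adjusted p = 0.000275). The transcript model RP11-512M8.5 overlaps DIABLO on the same strand and could share its reads. It averaged 8.94 RPKM in depleted, 7.07 RPKM in repleted and 7.03 RPKM in full libraries.

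Depleted against repleted medium, in which the media differ by the Zn(II) that was added, called the same 7 genes in the same directions, 6 higher and 1 lower (limma, background 60.7% of all genes tested, 29.5% higher and 31.2% lower). This comparison shares its depleted libraries with the previous one. For all 7 the depleted and repleted libraries did not overlap, as for 65.2% of all genes. XIAP was 2.21-fold higher (log2 1.07, SE 0.1, limma adjusted p = 1.18e-05), and its repleted level of 9.417 ± 0.193 RPKM was the lowest of its 3 groups. The rise of CASP9 over repleted medium was 1.61-fold (limma adjusted p = 0.000138 for a log2 change of 0.65) and that of BIRC2 1.44-fold (adjusted p = 0.0013 for 0.5). APAF1, CASP2 and DIABLO were 1.4-fold, 1.26-fold and 1.25-fold higher (log2 0.45, 0.33 and 0.31). CASP8 was 1.53-fold lower (log2 -0.56, SE 0.1, limma adjusted p = 0.000967), and CASP6 did not pass (log2 0.01, interval -0.2 to 0.21).

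Repleted against full medium asks whether medium with Zn(II) returned left these transcripts where untreated medium did. Of the 8 genes, limma called 0, as for nearly all genes (0.0317% of 15774 called), with 2 of the 8 at an unadjusted p below 0.05, against 7.76% of all genes. Those were CASP2 (32.32 ± 0.524 RPKM in repleted and 30.08 ± 0.655 RPKM in full medium, log2 0.1, interval 0.01 to 0.19, limma adjusted p = 0.599) and DIABLO (39.6 ± 1.3 RPKM in repleted and 35.37 ± 2.71 RPKM in full medium, log2 0.16, interval 0.01 to 0.32, limma adjusted p = 0.629). CASP2 was the only one of the 8 whose repleted and full libraries did not overlap, as 12.4% of all genes tested did not. XIAP and BIRC2 had lower means in repleted than in full medium, with log2 values of -0.22 (interval -0.44 to 0.0006) and -0.21 (interval -0.42 to 0.01) that did not pass. The intervals of APAF1 (-0.1 to 0.17), CASP9 (-0.11 to 0.28), CASP6 (-0.2 to 0.22) and CASP8 (-0.26 to 0.19) spanned 0 and bound how far these genes could differ.

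**Figure D2:**
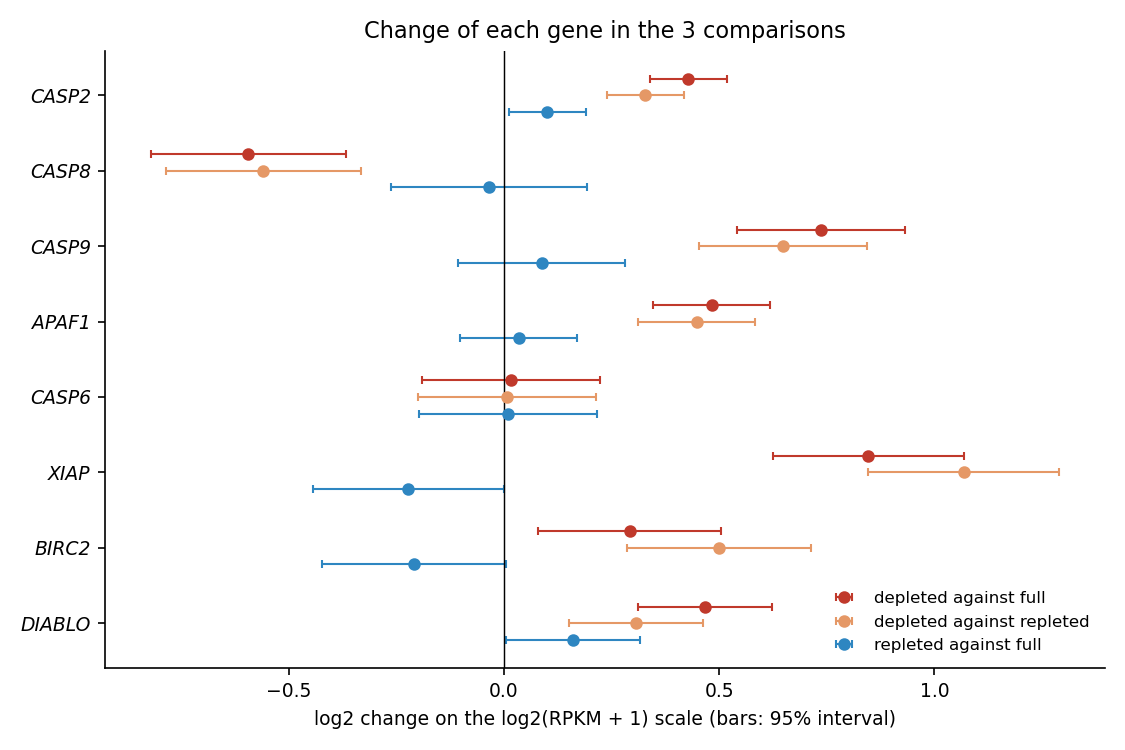
Log2 change of each gene (horizontal axis, log2(RPKM + 1) scale) for the 3 pairs of media; points are limma estimates and bars 95% intervals. XIAP reaches 1.07 against repleted medium, CASP8 lies at -0.59 and -0.56 in the depleted comparisons, and the repleted against full values lie between -0.22 and 0.16.

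The order of transcript levels changed below its top places. DIABLO (49.31 ± 3.94, 39.6 ± 1.3 and 35.37 ± 2.71 RPKM in depleted, repleted and full medium) and then CASP2 were the most abundant in every group, and neither overlapped its neighbour in the order. In depleted medium BIRC2, XIAP and CASP9 followed at 21.71, 20.84 and 19.51 RPKM with neighbouring ranges that overlapped, then CASP6 and APAF1 at 17.38 and 15.96 RPKM, again overlapping, and CASP8 last at 11.3 RPKM with no overlap. In repleted medium CASP6, CASP8 and BIRC2 followed CASP2 at 17.25, 17.24 and 15.06 RPKM, CASP9 and APAF1 overlapped at 12.11 and 11.42 RPKM, and XIAP was last at 9.417 RPKM, apart from the rest. In full medium CASP8, BIRC2 and CASP6 overlapped at 17.58, 17.49 and 17.17 RPKM, and CASP9, XIAP and APAF1 at 11.31, 11.24 and 11.13 RPKM.

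Ratios within a library show these shifts without any scaling between libraries, and are given as a description. CASP9 over CASP8 was 1.87, 1.69 and 1.62 in depleted libraries, 0.866, 0.766 and 0.529 in repleted libraries and 0.63, 0.626 and 0.677 in full libraries. The mitochondrial initiator was thus the more abundant transcript in each depleted library, and the death receptor initiator in each of the other 6. CASP8 over its adaptor FADD was 0.429 ± 0.029 in depleted, 0.8 ± 0.096 in repleted and 0.839 ± 0.06 in full libraries (SD, n = 3 each). XIAP over DIABLO was 0.423, 0.385 and 0.467 in depleted, 0.251, 0.234 and 0.229 in repleted and 0.291, 0.384 and 0.281 in full libraries. The depleted and full values nearly met, at 0.385 in depleted replicate 2 and 0.384 in full replicate 2. XIAP over CASP9 ranged from 0.991 to 1.12 in depleted, from 0.707 to 0.853 in repleted and from 0.847 to 1.22 in full libraries, so that the depleted libraries lay above the repleted ones and overlapped the full ones. BIRC2 over DIABLO ranged from 0.397 to 0.535 in depleted, from 0.345 to 0.448 in repleted and from 0.464 to 0.527 in full libraries, and the depleted range overlapped both others. CASP9 over APAF1 was 1.13 to 1.29 in depleted, 0.941 to 1.21 in repleted and 0.972 to 1.05 in full libraries.

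**Figure D3:**
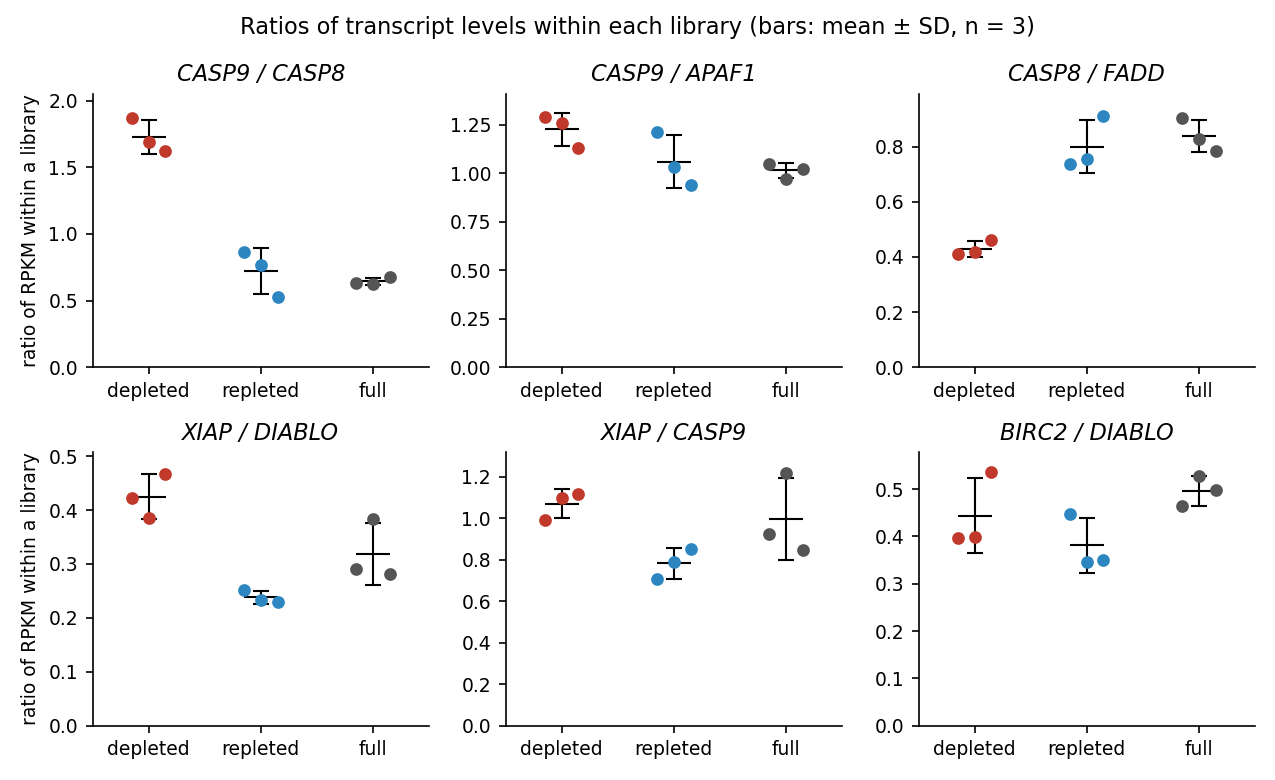
Ratios of RPKM between pairs of genes within each library (vertical axes, from 0), for the depleted, repleted and full groups; points are libraries and bars the mean ± SD. CASP9 over CASP8 is above 1.6 in the depleted libraries and below 0.9 in the other 6, whereas XIAP over CASP9 and BIRC2 over DIABLO overlap between depleted and full libraries, and XIAP over CASP9 is lower in the repleted libraries (0.707 to 0.853) than in the depleted ones.

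The wider cell death pathway moved in both directions. Of 49 further pathway genes, 39 were tested. In depleted against full medium 13 rose, 16 fell and 10 did not pass, with a median log2 change of 0.03 against 0.0008 over all genes tested. These counts, and those of the lists that follow, stand beside 29.8% of all genes called higher and 31.2% called lower, and nothing particular to a list is read from them. Against repleted medium 13 were higher and 16 lower, and in repleted against full medium limma called 0 of 39, with 2 at an unadjusted p below 0.05, against 7.76% of all genes. The 10 that were not tested included the inflammatory caspases CASP1, CASP4 and CASP5 and the necroptosis kinase RIPK3, with no value above 1.52 RPKM, and CASP5, CASP12 and BIRC8 were listed at 0 in all 9 libraries.

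CASP10, a death receptor caspase related to CASP8, fell. It averaged 2.707 ± 0.136 RPKM in depleted and 4.937 ± 0.719 RPKM in full medium (log2 -0.67, limma adjusted p = 0.0011). With a pseudocount of 0.1 RPKM in place of 1 its log2 change was -0.84.

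Of the 4 other IAP family genes tested, 1 rose and 1 fell. BIRC5, the mitotic protein survivin, fell to 50.91 ± 3.6 RPKM in depleted medium, against 121.4 ± 3.66 RPKM in full medium (log2 -1.24, limma adjusted p = 6.93e-08). BIRC6, a giant ubiquitin ligase, rose by 0.33 (limma adjusted p = 0.0387), but the call was lost in 9 of 18 alternatives, among them each without 1 of the 3 depleted libraries, full replicate 1 or repleted replicate 1 (adjusted p 0.0206 to 0.11), with a log2 change of 0.18 without full replicate 1. BIRC3 (log2 -0.34) and NAIP (log2 0.2) did not pass. Of the 5 IAP antagonists and mitochondrial factors tested, 1 rose and 4 fell. HTRA2, a mitochondrial protease that like DIABLO binds IAPs, rose to 42.19 ± 1.94 RPKM in depleted medium, against 30.29 ± 0.396 RPKM in full medium (log2 0.46, limma adjusted p = 1.88e-05). CYCS, the nuclease gene ENDOG (log2 -0.58) and SEPT4, whose ARTS isoform antagonizes XIAP (0.7433 ± 0.145 RPKM in depleted and 2.053 ± 0.381 RPKM in full medium, log2 -0.8, or -1.35 with a pseudocount of 0.1 RPKM), fell. SEPT4 had 0.6 to 0.89 RPKM in depleted libraries and passed the filter through the repleted and full libraries alone. It rested on an estimated 15 to 59 reads in a library, and its call, which is in the counts of falls, is not read as support.

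Of the 10 death receptor and adaptor genes tested, 5 rose and 3 fell. TNFRSF10B, a receptor of TRAIL, rose to 58.45 ± 1 RPKM in depleted medium, against 42.69 ± 1.26 RPKM in full medium (log2 0.44, limma adjusted p = 1.13e-05). FADD, which recruits CASP8, rose by 0.32, while the receptor TNFRSF21 had a log2 change of -0.43. The adaptor TRAF2, a partner of BIRC2, averaged 16.71 RPKM in depleted, 14.39 RPKM in repleted and 11.58 RPKM in full medium, with no overlap between the 3 groups. Its log2 change was 0.49 against full medium and 0.2 against repleted medium (limma adjusted p = 0.0391), where the call was lost in 8 of 18 alternatives (adjusted p 0.0133 to 0.142), among them without depleted replicate 1 or 2, repleted replicate 1 or 3, or full replicate 1. Between repleted and full medium its log2 change was 0.29, which did not pass (limma adjusted p = 0.425). Of the CASP2 platform, the linker CRADD rose to 11.69 ± 0.688 RPKM in depleted medium, against 7.96 ± 0.435 RPKM in full medium (log2 0.5, limma adjusted p = 0.000515). PIDD had 16 ± 0.668 RPKM in depleted and 13.67 ± 0.921 RPKM in full medium and did not pass (log2 0.21, limma adjusted p = 0.0575), although it passed in 6 of 18 alternatives, among them median centring and quantile normalization (0.0241 at the lowest, 0.161 at the highest) and without full replicate 2, repleted replicate 1 or repleted replicate 3.

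Of 11 caspase substrates and executors, 2 rose and 6 fell. DFFA, the inhibitor that caspases cleave to free the nuclease of DNA fragmentation, fell to 34.83 ± 1.83 RPKM in depleted medium, against 69.72 ± 2.98 RPKM in full medium (log2 -0.98, limma adjusted p = 2.05e-07). Its nuclease DFFB, named after its values were seen, rose to 16.15 ± 2.02 RPKM in depleted medium, against 8.45 ± 1.16 RPKM in full medium (log2 0.86, limma adjusted p = 0.000138). The gasdermin gene DFNA5 fell to 1.77 ± 0.34 RPKM in depleted medium, against 7.33 ± 0.52 RPKM in full medium (log2 -1.59, limma adjusted p = 2.25e-06). With a pseudocount of 0.1 RPKM in place of 1 its log2 change was -2.01. The lamin gene LMNB1 and the repair enzyme gene PARP1, both classical caspase substrates, had log2 changes of -0.58 and -0.47. Of the 6 necroptosis and RING genes tested, 3 rose and 1 fell. MLKL, the pore-forming protein of necroptosis, had 2.577 ± 0.375 RPKM in depleted and 0.1 ± 0.0557 RPKM in full medium (log2 1.7). It passed the filter through the depleted libraries alone, so its call, which is in the counts of rises, is not read as support. Its log2 change depends on the pseudocount, being 3.77 with 0.1 RPKM in place of 1. MDM2, the ubiquitin ligase of p53, rose by 0.45. RBCK1 rose by 0.3 against full medium (limma adjusted p = 0.0126, and 0.19 on the log2 scale without depleted replicate 1) and did not pass against repleted medium (log2 0.21, limma adjusted p = 0.0594), and SHARPIN, like RBCK1 a subunit of the linear ubiquitin ligase, had a log2 change of -0.65.

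**Figure D4:**
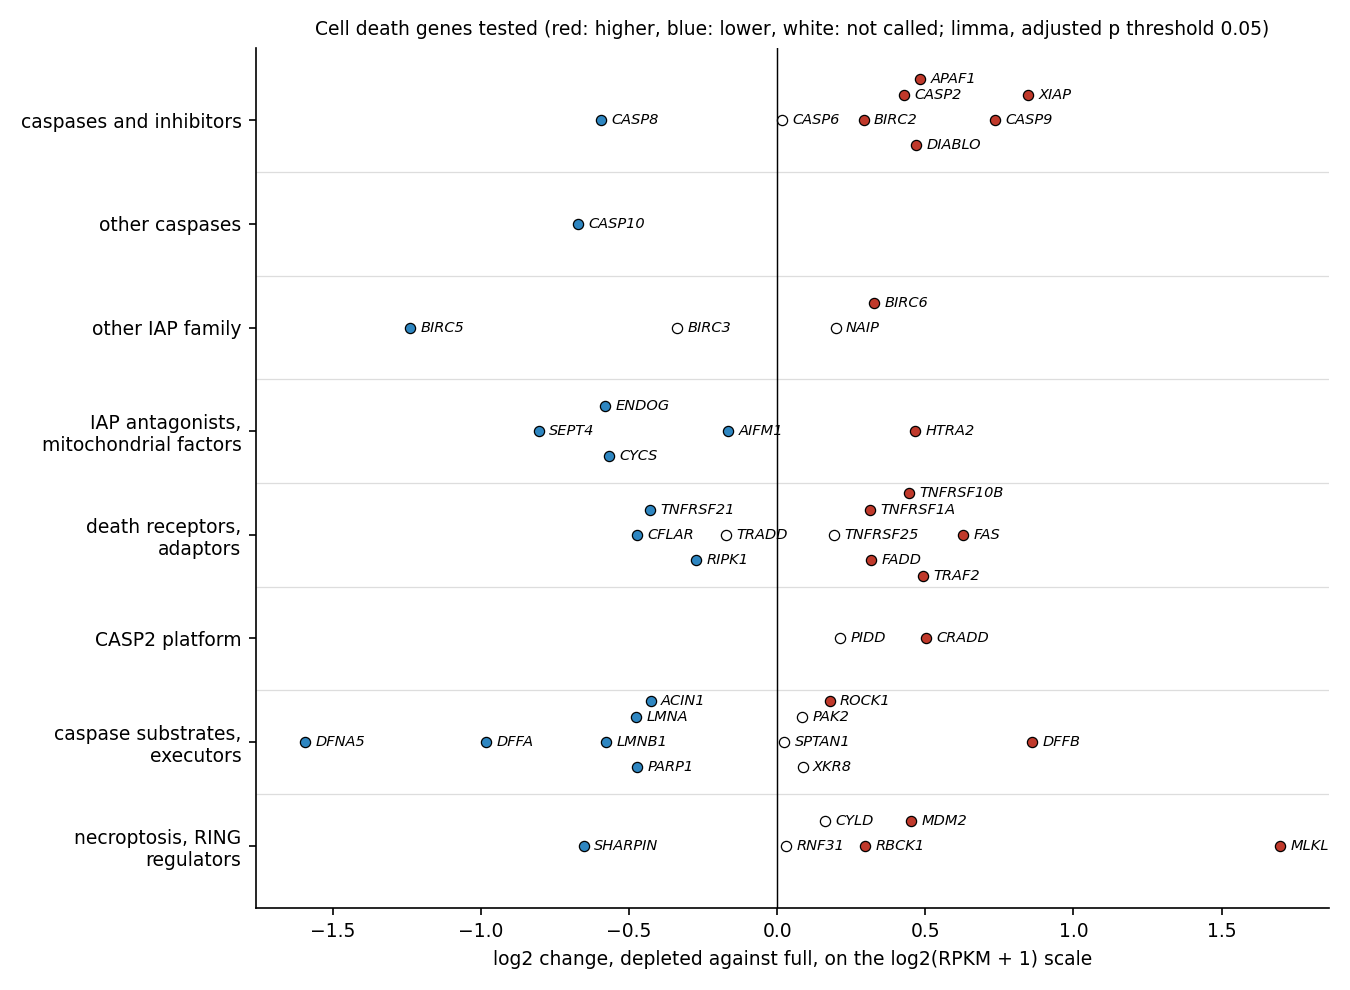
Log2 change in depleted against full medium (horizontal axis, log2(RPKM + 1) scale) of the 8 genes and the 39 further pathway genes tested, by list; red points were called higher, blue points lower and white points not called by limma. The further lists hold 13 red and 16 blue points. Their extremes are MLKL at 1.7 (3.77 with a pseudocount of 0.1 RPKM) and DFNA5 at -1.59 (-2.01 with that pseudocount). MLKL passed the filter through the depleted libraries alone, and SEPT4 and BIRC3 through repleted and full libraries alone.

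Other genes with profiles like those of the called members were sought among 10381 genes averaging 5 RPKM or more, by Pearson's r of log2 values over the 9 libraries, which share the depleted libraries as their main contrast. XIAP was most like RELA (r = 0.994) and RHOQ (0.992), CASP9 like ADAM15 (0.993) and FBXW5 (0.992), and APAF1 like CNOT10 (0.993) and IDH3A (0.992). CASP2 was most like CDC42EP1 (0.996) and NCOA6 (0.995), and CASP8 like FKBP5 (0.987) and YWHAQ (0.983). The values were lower for DIABLO with PSMG1 (0.971) and CRLF3 (0.964) and for BIRC2 with SPC25 (0.968) and C2orf44 (0.956). RELA averaged 56.8 RPKM in depleted, 40.4 RPKM in repleted and 42.5 RPKM in full libraries.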

How the data were processed

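Gene expression was measured by sequencing of polyadenylated RNA (TruSeq, single-end, HiSeq 2000) in 9 libraries. The authors deposited 1 table with log2 of RPKM plus 1 per gene, per the file headers and the values. Its other columns, gene length and effective length, were deposited as further values that served here for depth alone. The submitters' processing notes list builds hg19 and GRCh37, BWA 0.7.12-r1039, bedtools 2.25.0.3, RSEM 1.2.6 and Bowtie 1.0.1, with no role or order. Filters, strand settings and any scaling between libraries are not given in the sources used here. The 20320 blank rows were dropped, and 0 columns had an unknown sample.

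The 15774 genes that reached 1 RPKM in 3 or more libraries were fitted with limma 3.58.1 in R 4.3.3 on the deposited log2 values, with a variance trend and 1 mean per group over all 9 libraries, and adjusted by Benjamini-Hochberg. Fold changes are ratios of mean RPKM. The fit was tested on simulated data with independent noise and few shifted genes. Most genes were called in the depleted comparisons here, so that test does not cover the conditions of these data. Depth was estimated from the smallest steps of low values, over genes of 100 to 500 nucleotides effective length, of which 59% to 66.1% were whole reads within 0.1 read. Counting intervals were not computed.

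The 8 genes, the pathway lists and the rule for named genes (per list, up to 4 genes ranked by p against full medium, and those with an absolute log2 change of at least 1) were chosen with earlier results of these data known. DFFB and CFLAR were named outside the rule. Some genes of the lists are not reported here and are left out of the list counts. The promoter windows follow GRCh38.p14, which is not the build of the expression table, and match members by symbol. Plots used matplotlib 3.10.9 (Python 3.11.15).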

Additional observations from a re-analysis of the deposited data

How the results depend on the processing

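The calls of the 8 genes were stable over 18 alternatives, apart from BIRC2. In depleted against full medium 140 of 144 values kept their side of the threshold, and the 4 that did not were all of BIRC2, including at a threshold of 0.01 (adjusted p = 0.023). In depleted against repleted and in repleted against full medium all 144 values kept theirs. The number of the 8 called in depleted against full medium was 6 to 7 with a library left out. For the 39 pathway genes, 28 of 693 values lost their call and 6 gained one in depleted against full medium, and 50 and 4 in depleted against repleted medium. No called value changed direction, and 65 values that were not called changed sign. Over all genes, the 5 calls of repleted against full medium became 1 at a threshold of 0.01, 3 with a pseudocount of 0.1 RPKM, and 2 with no filter, with only the 6 libraries compared, with no variance trend or with the replicate number as a block, and 1 to 8 with a library left out. The cause was not tested. The library medians of depleted and full libraries differed by -0.05 on the log2 scale. Median centring turned the split of calls over all genes in depleted against full medium to 5186 higher and 4498 lower, and quantile normalization to 5062 and 4538, against 4693 and 4918 as deposited.

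Whether the replicate numbers pair the samples is not settled. Residuals of libraries with the same number correlated at -0.0144 to 0.0726 (9 pairs) and of other numbers at -0.0609 to 0.0416 (18 pairs). These ranges overlap, and so few correlations cannot exclude a weak pairing. The replicate block changed no call of the 8 genes (BIRC2 adjusted p = 0.0443). Without counts, the precision that depth gives each gene was not computed.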

Other observations

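CASP8 and BIRC2 each lie beside a family member in the gene annotation (GENCODE 29). On chromosome 2 the order of protein-coding genes is CFLAR, CASP10, CASP8, ALS2CR12 and TRAK2. Of these, CFLAR, CASP10, CASP8 and TRAK2 (log2 -0.49) were lower in depleted than in full medium, as were 31.2% of all genes tested, and ALS2CR12 was not among the genes tested. CFLAR, a catalytically inactive relative that restrains CASP8 and was named here after its values were seen, had 6.993 ± 0.696 RPKM in depleted, 10.74 ± 1.23 RPKM in repleted and 10.09 ± 1.07 RPKM in full medium (log2 -0.47 against full medium, limma adjusted p = 0.00327). The ratio of CASP8 to CFLAR was 1.63 ± 0.21 in depleted, 1.6 ± 0.11 in repleted and 1.76 ± 0.3 in full libraries (SD, n = 3 each), with overlapping ranges. On chromosome 11 BIRC3 lies beside BIRC2. BIRC3 had 0.5433 ± 0.139 RPKM in depleted, 0.9133 ± 0.5 RPKM in repleted and 0.9567 ± 0.261 RPKM in full medium and did not pass in either depleted comparison (limma adjusted p = 0.179 and 0.255). It passed the filter only through repleted replicate 2 (1.49 RPKM) and full replicates 1 and 3 (1.18 and 1.02 RPKM). With an estimated 23 to 75 reads in a library, its not passing says little.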
